A study of Homo sapiens with 6 samples.

Results

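KDM6A, its paralog KDM6B, the enhancer complex in which KDM6A sits (KMT2C, KMT2D, NCOA6, PAXIP1 and PAGR1), the related methyltransferase KMT2A and the acetyltransferases EP300 and CREBBP make up the 10 genes described here. Their chromatin was read from ATAC-seq, an assay in which the Tn5 transposase inserts adapters where DNA is accessible. The cells were ARP1, a human line of multiple myeloma, a plasma cell cancer. Cells carrying a KDM6A knockout (KO, 3 libraries) were set against wild-type cells (WT, 3 libraries), with no treatment given in the labels. Replicate numbers are given without naming clones, guides or cultures, so the p-values rest on the spread among 6 libraries, which may be technical. Peaks of the 6 lists that shared at least 1 bp were merged into 75701 regions. Of these, 53 overlapped a gene of the group or lay within 50 kb of either of its ends. The series asks how KDM6A affects DNA accessibility, and the comparison made here is whether the chromatin at its own gene, its paralog and its partners differed between the genotypes. The distance limit passed between a region 49.2 kb from KMT2D, which was kept (mean fold 14.1 in the knockout, against 13.7 in the wild type), and a region 50.1 kb from NCOA6, which was not (mean fold 17.8 in the knockout, against 14.8 in the wild type).

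KDM6A and KDM6B take methyl groups off lysine 27 of histone H3, a modification laid down by Polycomb complexes at silenced genes. KMT2C and KMT2D place a methyl group on lysine 4 of histone H3 at enhancers, and each assembles with KDM6A, the coactivator NCOA6, the adaptor PAXIP1 and its partner PAGR1. EP300 and CREBBP acetylate lysine 27 at active enhancers, while KMT2A methylates lysine 4 mostly at promoters and works without KDM6A. KDM6A is recurrently inactivated in multiple myeloma.

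Promoter sequence was on hand for 8 of the 10 genes, from RefSeq on GRCh38.p14, with NCOA6 and PAXIP1 not matched. Promoters of 3 genes are shown: KDM6A as the targeted gene, the upper start of CREBBP as the region with the highest rank difference between genotypes, and KMT2A, whose peak summits lay at other bases in the knockout than in the wild type. Each sequence runs 5′ to 3′ along the gene, from 250 bases before the start to 50 after it. Capitals mark matches, on either strand, to the SP/KLF box GGGCGG, the CCAAT box CCAAT, the E-box CACGTG, the AP-1 element TGANTCA and the YY1 element GCCATCTTG.
KDM6A, chrX:44872938-44873237, plus strand: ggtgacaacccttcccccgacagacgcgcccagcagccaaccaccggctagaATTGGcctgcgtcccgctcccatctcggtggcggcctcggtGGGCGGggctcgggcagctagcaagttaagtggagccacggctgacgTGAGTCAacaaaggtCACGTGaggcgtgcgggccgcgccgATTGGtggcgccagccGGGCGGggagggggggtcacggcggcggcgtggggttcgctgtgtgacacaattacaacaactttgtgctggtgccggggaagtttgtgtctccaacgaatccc
CREBBP upper start, chr16:3880664-3880963, minus strand: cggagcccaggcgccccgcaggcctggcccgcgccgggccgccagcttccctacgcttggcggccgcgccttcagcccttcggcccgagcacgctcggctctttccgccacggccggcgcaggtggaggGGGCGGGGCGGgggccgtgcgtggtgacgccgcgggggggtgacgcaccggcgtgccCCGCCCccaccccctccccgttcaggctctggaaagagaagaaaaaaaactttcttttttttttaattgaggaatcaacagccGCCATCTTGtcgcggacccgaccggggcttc
KMT2A, chr11:118436242-118436541, plus strand: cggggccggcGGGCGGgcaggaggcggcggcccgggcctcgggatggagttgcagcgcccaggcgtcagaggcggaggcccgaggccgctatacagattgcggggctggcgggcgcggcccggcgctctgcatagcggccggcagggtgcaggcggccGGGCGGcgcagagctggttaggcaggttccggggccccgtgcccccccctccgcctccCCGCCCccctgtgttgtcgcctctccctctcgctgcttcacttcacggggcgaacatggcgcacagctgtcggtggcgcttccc

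The KDM6A window held 2 CCAAT boxes and 2 SP/KLF boxes, with an AP-1 element at base -110 and an E-box at base -95 from the start. The CREBBP window held 3 SP/KLF boxes and a YY1 element at base 20, and the KMT2A window 3 SP/KLF boxes. SP/KLF boxes can overlap each other, as a pair did in the CREBBP window, and no other motifs overlapped. Of 35116 promoter windows of the same length, 45% held an SP/KLF box, 34.6% a CCAAT box, 7.71% an AP-1 element, 7.26% an E-box and 1.42% a YY1 element. The cyclic AMP element TGACGTCA (1.85% of windows) and the ETS element CCGGAAG (10.3%) were also searched for and matched none of the windows of the 8 genes. GC content was 66.3% for KDM6A, 70.3% for CREBBP and 76.3% for KMT2A, against a median of 58.7% over all windows. The matches describe the letters of these windows and are not evidence of binding.

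The lists differed in length and in the background behind them. Knockout lists held 33055 to 37314 peaks and wild-type lists 54443 to 56048. Each peak carries the authors' fold over background, and the pileup of background fragments recovered from the steps of those folds was 2.05 to 2.56 in knockout and 3.11 to 3.77 in wild-type libraries. The weakest listed peak had a summit pileup of 9 to 10 in the knockout, against 11 to 12 in the wild type. A region missing from a list was therefore under that list's threshold, not shown to be closed. Starts of 7 of 7 plasma cell markers were called in all 6 lists, against 1 of 5 B cell, 1 of 4 T cell, 0 of 4 myeloid and 1 of 4 stromal markers. The non-plasma genes called were BCL6, CD3E and COL1A1, and for CD3E and COL1A1 the call was at a gene end of unknown strand.

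All 10 genes had a peak over their start in every library of both genotypes. Of protein-coding genes with a listed promoter, 58.7% had a start called in all 6 lists. The number of the 53 regions called was 36, 39 and 38 in knockout replicates 1 to 3, against 41, 46 and 44 in wild-type replicates 1 to 3. The mean was 37.7 ± 1.53 in the knockout, against 43.7 ± 2.52 in the wild type (SD, n = 3 each), and the ratio of these means was 86.3%. Over all merged regions that ratio was 62.8%. With every list held to the length of the shortest, the direction turned near these genes: 37.0 regions were called per knockout library, against 32.7 per wild-type library, a ratio of 1.13 beside 0.967 over all regions. Of the 53, 32 were called in all 6 lists, and 8 in a single list. These 32 were among the 38 that all wild-type lists held. Over the genome, 59.3% of the regions in all wild-type lists were called in all 6. That share depends on position: it was 8535 of 9142 regions at listed gene starts and 15054 of 30635 elsewhere. Starts of the 10 genes gave 11 regions, all called in all 6 lists, and starts of neighbouring genes 21, of which 17 were. Where no start with strand was listed, both gene ends stood in for it, as for NCOA6, PAXIP1 and the neighbours DDN, RHEBL1, WNT10B and PRRT2. Of the 9 regions inside a gene of the group and away from any start, 1 was called in all 6 lists.

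**Figure D1:**
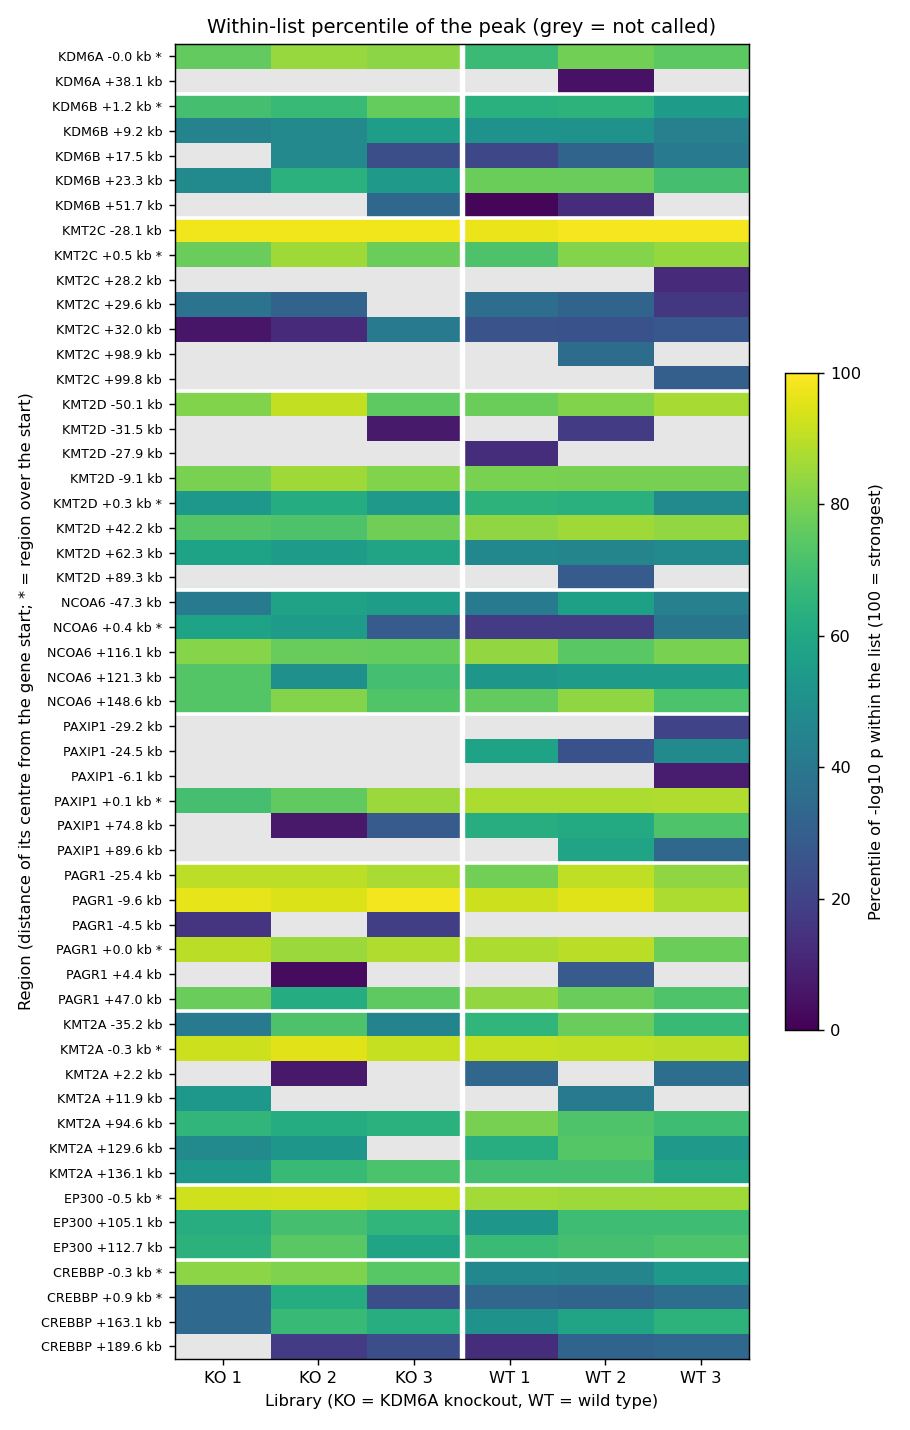
Within-list percentile of the −log10 p-value (colour, 100 strongest, grey not called) of the 53 regions in each library, knockout columns left, with each region labelled by its distance in kb from the gene start and an asterisk marking the 11 start regions. No start region is grey in any library, and 4 of the 6 PAXIP1 rows are grey in all 3 knockout columns.

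A region that 0 knockout lists and all 3 wild-type lists held is termed WT-only here, and KO-only means the converse. WT-only regions made up 1 of the 38 regions near these genes that all wild-type lists held, or 2.63% (exact 95% interval 0.0666% to 13.8%, counting error only), against 17.3% over all regions and 15.2% within 50 kb of protein-coding genes. The position of the regions sets that background: 1.68% of regions at gene starts and 21.9% of the others were WT-only. Of the 38 regions, 25 lay at a listed gene start, and 0 of these were WT-only, beside the 1.68% of all such regions. Of the other 13, 1 was WT-only, beside 21.9%. KO-only regions made up 0 of 32, against 0.39% over all regions. A count of 0 allows a share of up to 9.38% (3 divided by 32, an approximate 95% bound, counting error only). This bound and the exact interval above treat the regions as independent, and neither measures the spread among libraries. Neither the paralog KDM6B nor any partner had a region seen in all knockout lists and no wild-type list. At equal list length, with the 33055 strongest peaks of each list, 0 of 31 were WT-only, against 7.24% over all regions, and 2 of 31 were KO-only, against 3.82%. These 2 were the start of NCOA6 and the lower start of CREBBP, which in the full lists were called in all 6 libraries.

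PAXIP1, which encodes the BRCT-domain adaptor of the complex, held the WT-only region (chr7:155027472-155028337, with its centre at -24.5 kb from the start and outside protein-coding genes). Its fold was 7.05, 4.62 and 6.08 in the wild-type libraries. PAXIP1 also had the widest gap in calls, with 1, 2 and 2 of its 6 regions in the knockout lists, against 3, 4 and 6 in the wild-type lists. Its regions other than the start lay outside protein-coding genes. Over the genome, 21.9% of regions away from gene starts were WT-only, against 1.68% at starts. Each count by gene given here stands beside a ratio of 62.8%, knockout over wild type, in regions called per library over all regions. Without wild-type replicate 1 a further region would count as WT-only, chr7:154913448-154914155, called with folds of 8.02 and 4.82 in the other wild-type libraries. PAGR1 went the other way, with 5 regions in each knockout list, against 4, 5 and 4 in the wild-type lists. While 10 of the 53 regions were found in none of the shorter knockout lists, only 1 was found in no wild-type list. That region lay at -4.53 kb from the PAGR1 start, near the lower end of PRRT2 (chr16:29811266-29811969). It had folds of 4.51 and 4.21 in knockout replicates 1 and 3. Without knockout replicate 2 it would count as KO-only. EP300 and NCOA6 had the same calls in every library, 3 and 5 regions. KDM6B had 3, 4 and 5 regions in the knockout lists, against 5, 5 and 4 in the wild-type lists. KMT2C had 4, 4 and 3 in the knockout lists, against 4, 5 and 6 in the wild-type lists, and KMT2D had 5, 5 and 6 in the knockout lists, against 6, 7 and 5 in the wild-type lists. KMT2A had 6, 6 and 4 in the knockout lists, against 6 in each wild-type list. CREBBP had 3, 4 and 4 in the knockout lists, against 4 in each wild-type list.

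Strength was compared over the 23589 regions called in all 6 lists, so that every library ranked the same regions. A region's shared percentile is its position by −log10 p-value among them, with 100 the strongest. Normal scores of these ranks were tested with limma, with Benjamini-Hochberg adjustment over all 23589 regions and a threshold of 0.05. Ranking by fold in place of the −log10 p-value gave identical scores and calls. Both values ordered the regions of a list alike, so this is not a separate check.

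Among the demethylases, the KDM6A start itself stayed accessible in the knockout. Its region (chrX:44872212-44874149, over the gene start at 44873188) had folds of 11.4, 15.1 and 12.6 in the knockout, against 8.76, 13.6 and 10.7 in the wild type, and these ranges overlapped. Its shared percentile was 66.5, 75.7 and 73.8 in the knockout, against 32.7, 52.4 and 43.6 in the wild type, with no overlap. Within the full lists the percentile averaged 81.0 ± 4.55 in the knockout, against 73.9 ± 5.42 in the wild type. The mean shared percentile was 72.0 ± 4.83 in the knockout, against 42.9 ± 9.91 in the wild type (SD, n = 3 each). The normal score was higher in the knockout by 0.77 ± 0.19 (SE; limma adjusted p = 0.0482). Summits lay at bases -211 to -111 from the start in the knockout, against -267 to -177 in the wild type. A peak at the start says nothing of whether the coding sequence was edited. Only 1 other region was called along the gene, 38.1 kb inside it, with a fold of 3.403 in wild-type replicate 2 alone.

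KDM6B, the paralog with the same demethylase activity, also ranked higher. The region over its start at 7834217 (chr17:7833627-7837277) had folds of 10.2, 9.83 and 10.7 in the knockout, against 7.90, 9.24 and 6.92 in the wild type, every knockout value above every wild-type value. Its shared percentile averaged 57.8 ± 7.32 in the knockout, against 22.9 ± 5.79 in the wild type, and its normal score was higher in the knockout by 0.95 ± 0.19 (SE; limma adjusted p = 0.0295). Within the full lists the percentile averaged 71.5 ± 4.52 in the knockout, against 61.1 ± 5.17 in the wild type. The strongest summit of this broad region lay 1474 to 1612 bases downstream of that start in all 6 libraries. In knockout replicate 2 the peak with that summit, of fold 9.83, ran from base 495 to base 3060. A separate peak of that library over the start (bases -391 to 211) had a fold of 6.23. The folds compared above are thus those of the strongest peak in the region, not of the start itself. A second annotated KDM6B start, at 7839917, had no peak within 1 kb in any list. The summit pileup at KDM6B was 33, 29 and 37 in the knockout, against 36, 37 and 32 in the wild type, and so overlapped. The 2 other shared KDM6B regions did not pass the test. The region 9.21 kb into the gene had an adjusted p of 0.0580 (limma), and that 23.3 kb away, at the starts of CYB5D1, NAA38 and TMEM88, 0.422.

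**Figure D2:**
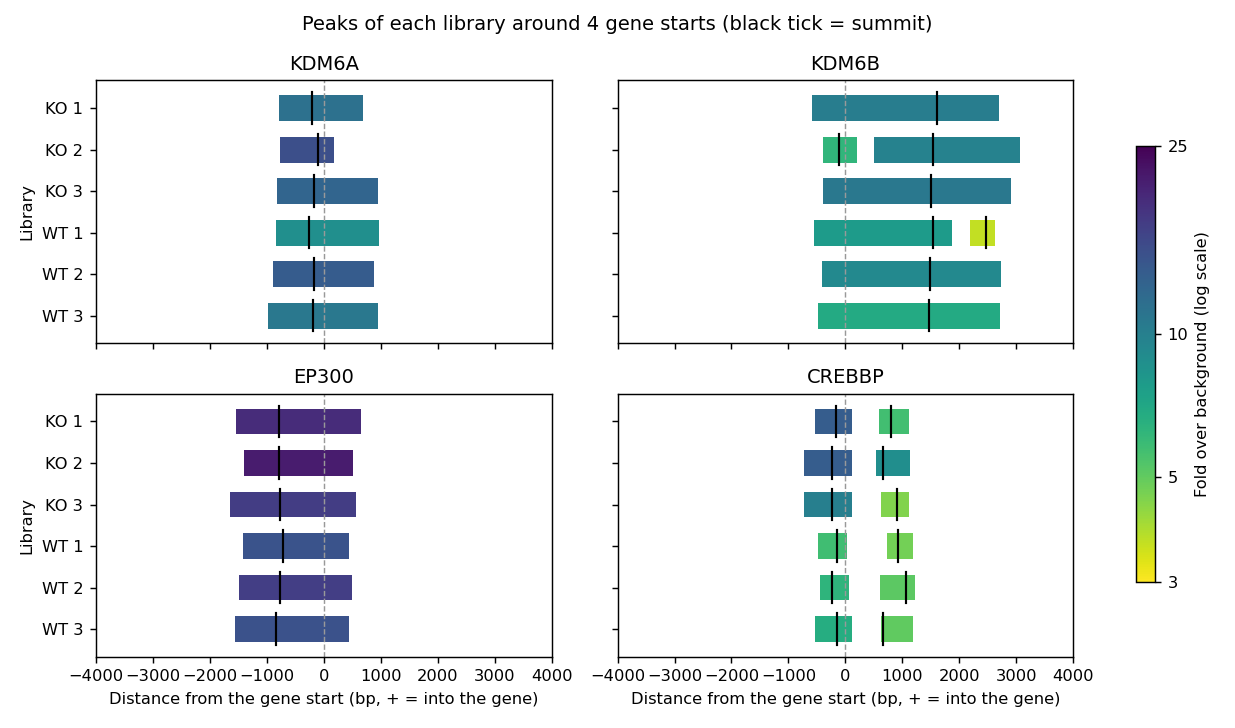
Peaks of each library (bars, colour the fold on a log scale, black ticks the summits) around the outermost starts of KDM6A, KDM6B, EP300 and CREBBP, with knockout libraries above wild-type libraries and positive distances pointing into the gene. The peak over the CREBBP start has folds of 10.1 to 13.5 in the 3 knockout rows and 5.77 to 6.71 in the 3 wild-type rows.

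The starts of the catalytic subunits did not pass the test. The start of KMT2C (chr7:152433711-152437351) had folds of 11.7, 15.7 and 10.9 in the knockout, against 9.61, 14.8 and 14.04 in the wild type (limma adjusted p = 0.187). The start of KMT2D (chr12:49059587-49061470) had folds of 7.52, 8.85 and 6.73 in the knockout, against 8.11, 8.99 and 6.08 in the wild type (limma adjusted p = 0.155). Mean folds were 12.8 ± 2.57 in the knockout, against 12.8 ± 2.81 in the wild type for KMT2C, and 7.70 ± 1.07 in the knockout, against 7.73 ± 1.496 in the wild type for KMT2D. These near-equal folds stand beside the lower median fold of the knockout over all shared regions. The shared percentile of KMT2C was 70.5 ± 6.36 in the knockout, against 53.5 ± 12.8 in the wild type. That of KMT2D was 37.0 ± 5.08 in the knockout, against 21.2 ± 8.88 in the wild type. Neither overlapped between genotypes. The unadjusted 95% interval of the score difference, knockout minus wild type, ran from -0.03 to 0.94 for KMT2C and from 0.02 to 0.98 for KMT2D. A strong region 28.1 kb upstream of KMT2C, outside protein-coding genes, stayed near the top of every list, with a shared percentile of 97.0 ± 0.121 in the knockout, against 95.9 ± 2.09 in the wild type (limma adjusted p = 0.699).

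The region past the threshold near KMT2D was not at its start. It covered the upper end of DDN, the neighbouring gene for dendrin, whose start is not listed with strand (chr12:48996688-49000256). Its folds were 8.13, 7.87 and 7.30 in the knockout, against 5.77, 6.32 and 6.08 in the wild type. The shared percentile was 38.2 ± 4.83 in the knockout, against 9.93 ± 1.05 in the wild type, and the normal score was higher in the knockout by 0.99 ± 0.16 (SE; limma adjusted p = 0.0225).

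Among the accessory subunits, NCOA6, a coactivator of nuclear receptors, passed the test. The region over its upper end (chr20:34824622-34825944), where the gene is known to start, had folds of 8.13, 7.87 and 4.77 in the knockout, against 3.84, 4.13 and 5.24 in the wild type. Knockout replicate 3 lay below wild-type replicate 3 on this scale. The shared percentile was 43.0, 33.4 and 8.47 in the knockout, against 0.996, 1.05 and 6.52 in the wild type, so that this peak was among the weakest shared regions of every wild-type list. These values did not overlap. The normal score was higher in the knockout by 1.39 ± 0.34 (SE; limma adjusted p = 0.0471). The call was lost with peaks of a −log10 q-value of at least 5 (limma adjusted p = 0.0513), and at equal list length the region could not be ranked because no wild-type list kept it.

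PAXIP1 was the only gene of the group whose start ranked lower on average in the knockout, and it did not pass the test. Its start (chr7:155001872-155004801) had folds of 10.2, 11.8 and 13.5 in the knockout, all below the 15.4, 18.5 and 16.1 of the wild type. Over all shared regions folds were lower in the knockout too. With log2 folds centred on each library's median, this start differed by -0.116, knockout minus wild type (limma adjusted p = 0.658). Its shared percentile was 59.5, 61.9 and 77.1 in the knockout, against 71.7, 71.9 and 72.4 in the wild type, so the ranks overlapped (limma adjusted p = 0.607). Within the full lists the percentile was 77.0 ± 7.24 in the knockout, against 87.9 ± 0.327 in the wild type, and these lists differ in length. PAGR1, the small partner of PAXIP1, had start folds of 16.9, 15.4 and 14.9 in the knockout, against 15.4, 20.2 and 11.5 in the wild type (chr16:29814918-29817425, limma adjusted p = 0.1998). The shared percentile of this region was 81.3 ± 4.46 in the knockout, against 65.8 ± 14.7 in the wild type, without overlap. That region also covers the upper end of PRRT2, and the lists cannot assign it to either gene.

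KMT2A had the widest start region, chr11:118434176-118438213. Its folds were 18.7, 24.3 and 17.1 in the knockout, against 17.9, 20.9 and 17.0 in the wild type. The shared percentile averaged 89.7 ± 3.09 in the knockout, against 77.9 ± 2.18 in the wild type, without overlap, and the adjusted p was 0.0944 (limma). The summit lay at bases -186, -202 and -178 from the start in the knockout, inside the promoter window shown, against -416, -416 and -479 in the wild type, outside it. Summit positions were not tested, and this one was singled out after its values were seen.

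EP300 and CREBBP, a pair of paralogous acetyltransferases, both passed the test at their starts. EP300 (chr22:41090939-41093246) had folds of 19.3, 21.3 and 17.1 in the knockout, against 14.5, 17.0 and 14.7 in the wild type, without overlap. Its shared percentile averaged 88.9 ± 1.74 in the knockout, against 67.1 ± 0.893 in the wild type, the smallest spread among the called starts. The normal score was higher in the knockout by 0.78 ± 0.16 (SE; limma adjusted p = 0.0312). Its summit pileup was 63, 64 and 60 in the knockout, against 67, 69 and 69 in the wild type, so by pileup alone the knockout was lower. Within the full lists the percentile averaged 92.5 ± 1.02 in the knockout, against 85.7 ± 0.277 in the wild type. Summits lay at bases -846 to -712 from the start in all 6 libraries.

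CREBBP had 2 separate start regions, and the outer of them carried the highest rank difference of the group. The upper region (chr16:3880595-3881437, over the start at 3880713) had folds of 13.5, 13.4 and 10.1 in the knockout, against 5.77, 6.32 and 6.71 in the wild type. Mean fold was 12.4 ± 1.96 in the knockout, against 6.26 ± 0.472 in the wild type (SD, n = 3 each). Its shared percentile was 75.9, 69.6 and 60.8 in the knockout, against 9.85, 8.92 and 14.9 in the wild type. The means lay 57.5 points apart. Within the full lists, where wild-type lists reach further down, its percentile was 82.7, 80.5 and 74.1 in the knockout, against 46.6, 45.4 and 53.5 in the wild type. The normal score was higher in the knockout by 1.72 ± 0.19 (SE; limma adjusted p = 0.0164).

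The summit pileup at the upper CREBBP start was 44, 40 and 35 in the knockout, against 26, 25 and 31 in the wild type. This was the only shared region near the 10 genes where every knockout pileup exceeded every wild-type pileup, with a lower background pileup in every knockout library. Over all shared regions, 29 of 23589 had that pattern (0.123%), and at gene starts 11 of 8535 (0.129%). Summits lay at bases -230 to -152 from the start in all 6 libraries, within the window printed above. The lower CREBBP region, over the start at 3880120 (chr16:3879491-3880183), had folds of 5.72, 8.85 and 4.49 in the knockout, against 4.70, 5.10 and 5.03 in the wild type (limma adjusted p = 0.128). The next shared region along the chromosome, at the start of TRAP1 (chr16:3716984-3718157), had folds of 5.72, 9.83 and 7.86 in the knockout, against 6.19, 8.02 and 8.38 in the wild type (limma adjusted p = 0.246).

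**Figure D3:**
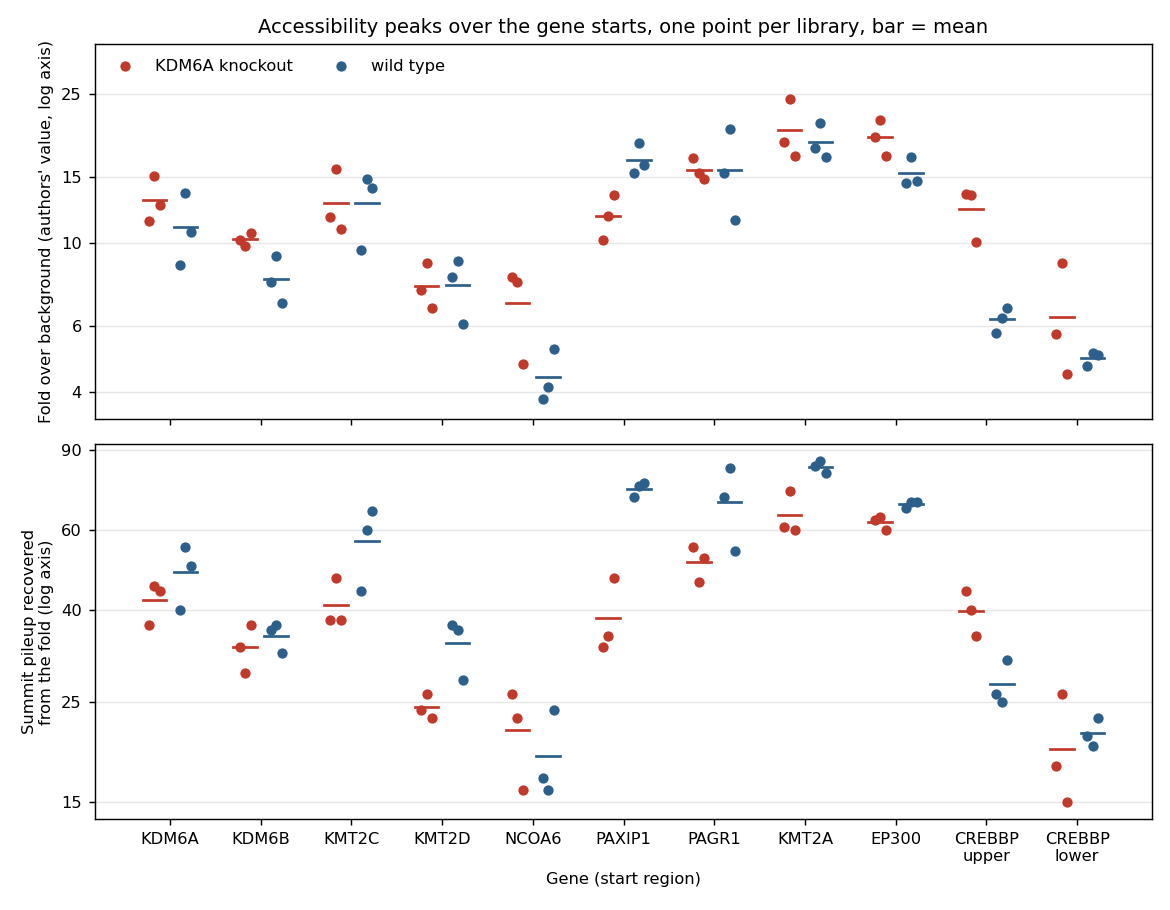
Fold over background (upper panel, log axis) and recovered summit pileup (lower panel, log axis) at the 11 start regions, knockout left of wild type for each gene, with a point per library and a bar at the mean of 3. In the lower panel the upper CREBBP start is the only region whose 3 knockout points all lie above its 3 wild-type points.

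In all, 6 of the 32 shared regions near these genes ranked higher in the knockout, with 0 lower. The 6 were the starts of KDM6A, KDM6B, NCOA6, EP300 and CREBBP (upper) and the upper end of DDN. Over all shared regions 4.08% were called higher and 3.06% lower, and at gene starts 5.41% higher and 1.11% lower. At an unadjusted p under 0.05, 16 of the 32 were higher and 0 lower, against 15.7% higher and 14.3% lower over all shared regions. Limma on centred log2 folds called 15 of the 32 higher and 0 lower, against 12.3% higher and 6.56% lower over all shared regions. The median difference in shared percentile was 16.4 points over the 32 regions, against -0.06 over all shared regions and 2.15 at gene starts. It was 17.2 over the 11 starts of the 10 genes. Every knockout fold exceeded every wild-type fold at 3 of those starts (KDM6B, EP300 and the upper CREBBP start), against 2.75% of gene starts. Each fold is that of the strongest peak in the region, read at its summit. At KDM6B that summit lay 1474 to 1612 bases downstream of the start in all 6 libraries, and in knockout replicate 2 the peak did not cover the start. Every knockout library ranked above every wild-type library at 10 of those 11 starts, against 24.6% of gene starts and 17.8% of all shared regions. Ranked against gene starts alone, 7 of 24 regions near these genes were called higher, against 8.48% of gene starts, with 7.3% called lower. A region had to pass the threshold of all 6 libraries to be ranked, so these counts describe the regions that did. The 10 genes were chosen with earlier results of these data known, and the group was not tested as a set. The counts and shares are therefore a description, not independent support.

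The calls depended on having 3 libraries of each genotype. With any 1 of the wild-type replicates left out, no shared region of the genome passed, and the adjusted p of the upper CREBBP start was 0.0939 without replicate 1, 0.0612 without replicate 2 and 0.0735 without replicate 3. Without knockout replicate 1, 1 of 35 shared regions near these genes was called higher, against 0.616% over all shared regions. Without knockout replicate 2 there were 4 of 32 (0.919% over all), and without knockout replicate 3 there were 5 of 34 (2.32% over all). The 4 included the start of TP53INP2 near NCOA6, and the 5 the lower CREBBP start, neither of them among the 6. The KDM6A start lost its call with any library left out (limma adjusted p of 0.0770 to 0.159). The upper CREBBP start was called each time a knockout library was left out. Background pileup was lower in every knockout library than in every wild-type library, and its part in the rank differences was not tested.

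**Figure D4:**
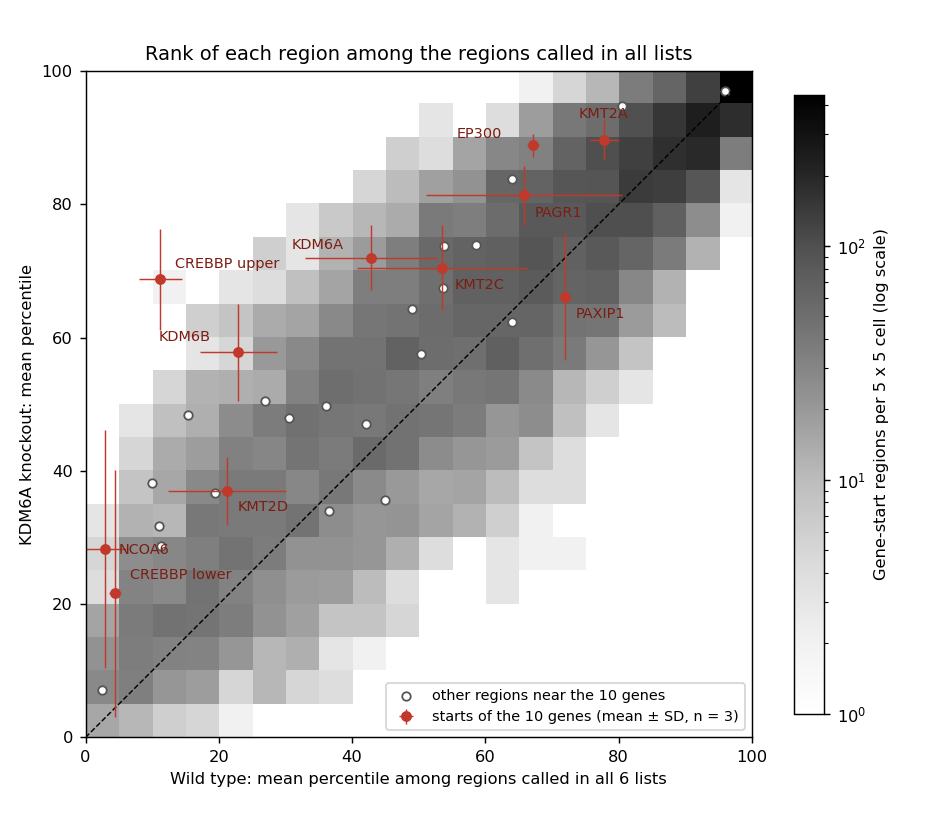
Mean shared percentile in the knockout (vertical axis) against the wild type (horizontal axis) for the 11 start regions (red, bars ± SD, n = 3) and the 21 other shared regions near the 10 genes (open circles), over a grey map of the 8535 shared regions at protein-coding gene starts (count per 5 by 5 cell, log scale). Of the 11 red points, 10 lie above the dashed line of equal rank, and PAXIP1 lies below it.

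Related genes outside the group were read at their starts from 4 lists, whose counts stand beside the 5.41% called higher and 1.11% called lower at all gene starts, or 20.4% and 7.97% at an unadjusted p. Of 13 other subunits and partners of the COMPASS methyltransferase complexes, 12 had a start called in all 6 lists, 0 had one ranked higher or lower after adjustment, and the median difference was 2.56 points (limma; at an unadjusted p under 0.05, 1 higher and 0 lower). Of 15 other coactivators and remodellers, 11 had such a start, 1 ranked higher and 0 lower, and the median difference was 1.64 points (limma; at an unadjusted p under 0.05, 1 higher and 1 lower). The gene called higher was SMARCA4, the ATPase of the SWI/SNF remodelling complex, with a shared percentile of 86.5 ± 6.75 in the knockout, against 48.7 ± 8.03 in the wild type (limma adjusted p = 0.0262). Of 15 other lysine demethylases, all 15 had such a start, 1 ranked higher and 0 lower, and the median difference was 7.34 points (limma; at an unadjusted p under 0.05, 4 higher and 1 lower). The gene called higher was KDM2A, a lysine 36 demethylase, with a shared percentile of 90.5 ± 6.46 in the knockout, against 62.3 ± 8.77 in the wild type (limma adjusted p = 0.0457). The 4 genes of the complex that writes lysine 27 methylation (EZH1, EZH2, EED and SUZ12) all had such a start, with 0 higher or lower after adjustment and a median difference of 11.8 points (limma; at an unadjusted p under 0.05, 1 higher and 0 lower). No gene of these lists had a start that all 3 lists of 1 genotype and none of the other held. The closest were NCOA2 and MED24, in opposite directions and singled out after their values were seen. NCOA2, a nuclear receptor coactivator, had a start in 0 of 3 knockout, against 2 of 3 wild-type lists. MED24 had a start in 3 of 3 knockout, against 1 of 3 wild-type lists. At the starts of the 10 genes themselves the median was 17.2 points, and the difference between these medians was not tested.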

How the data were processed

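The data were deposited peak lists, 1 per library, in narrow-peak layout. The submitters' processing notes name Bowtie2, Trimmomatic, FastQC, MultiQC, MACS2 2.1.2 and the build GRCh38, with settings, Tn5 shift and duplicate removal not given in the sources used here. Each deposited peak has the authors' score (a whole number, 10 times the −log10 q-value), fold over background (a ratio at the summit), −log10 p-value, −log10 q-value and summit position. The labels plan the same number of reads for every library. Read counts were not used here, so depth is known only through the background pileup.

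From these lists, peaks sharing at least 1 bp were merged after the mitochondrial peak, 1 per list, was left out. Where a region held several peaks of a list, the strongest counted. Below a fold of 100, 100% of folds were whole multiples of a single step per list (tolerance 0.01 of a step); the step gave the background pileup and the summit pileup (pileup + 1 over background + 1). Gene positions came from RefSeq GRCh38.p14 (20052 protein-coding genes). A start window was 1 kb on either side of a start with strand, or of both gene ends where none was listed. Ranks were tested with limma 3.58.1 in R 4.3.3 (two-sided, genotype only), and the code was tested on simulated data.

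All 10 genes are named with their start regions, WT-only and KO-only regions (3 lists of 1 genotype, 0 of the other) and regions past the threshold; in the other lists, genes past the threshold. The genes and lists were chosen with earlier results of these data known. Replicate lists shared at most 0.0441% of their intervals exactly. Alternatives were equal list length, a minimum −log10 q-value of 5, windows of 10 and 100 kb, start windows of 500 bp and 2 kb, an overlap of 50% of the shorter interval, ranking by fold, centred log2 fold, a replicate block and leaving out each library. Coverage of 50% of the region and ranking among gene starts only were added after seeing the data.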

Additional observations from a re-analysis of the deposited data

How the results depend on the processing

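The count of 1 WT-only region was 0 at equal list length and with a window of 10 kb, 4 with 100 kb and 3 where a list's peaks had to cover 50% of the region, and 1 to 2 when a library was left out. The count of 0 KO-only regions was 2 at equal list length and 0 to 1 when a library was left out. Regions called per knockout library over those per wild-type library, 0.863, came to 1.13 at equal list length (0.967 over all regions), 0.923 with 10 kb and 0.808 with coverage of 50%, and 0.837 to 0.886 when a library was left out. The difference in starts called was 1 at equal list length, through NCOA6. Regions ranked higher, 6 in the main setting, numbered 15 on centred log2 folds and 0 to 5 when a library was left out, not always from among the 6. They numbered 7 at the stricter q-value, without NCOA6, 8 at equal list length, where NCOA6 could not be ranked, and 7 among gene starts only, where NCOA6 and DDN have no listed start and were not ranked. The other called regions kept their calls at these 3 settings. Regions ranked lower numbered 0 in every setting. The labels give no paired origin and same-numbered libraries did not deviate together (correlations of -0.03, 0.003 and -0.16 over shared regions); with a replicate block 0 regions passed, near these genes or anywhere (smallest adjusted p = 0.0569, limma). The overlap of 50% of the shorter interval changes nothing by construction. Ranking by fold changed nothing either, as it orders the regions of a list as the −log10 p-value does. No start of the 10 genes changed direction while past the threshold. The list thresholds limit what can be seen: a knockout peak under a pileup of 9 was not listed.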
